A study of Mus musculus with 27 samples.

Results

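Genes that drive or restrain the passage of a cell from G1 into S phase were followed in CD8 T cells of 3 genotypes made to differ in the let-7 microRNAs, and at 3 stages of the response to antigen receptor signals. The genes were the D-type cyclins Ccnd2 and Ccnd3, their kinases Cdk4 and Cdk6, the phosphatase gene Cdc25a, the CDK inhibitor genes Cdkn1a, Cdkn1b and Cdkn2c, and the transcription factor genes E2f1 and E2f2. They are 10 of the 35275 genes of the tables and were chosen by symbol from a list, with E2f2 on it because its difference between genotypes turned sign between stages. The values of E2f2 are therefore given as a description, with no test, and E2f2 is left out of the counts of genes that differed between genotypes or stages.

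All cells were P14 CD8 T cells, whose receptor is a transgene specific for a peptide of LCMV, on a Rag2-/- background that prevents other receptors from being made. WT cells had no further transgene. The lin28Tg cells, labelled Lin28bTg, carried a Lin28b transgene whose promoter is not given in the sources used here. The let-7Tg cells carried a let-7g transgene that doxycycline induces, placed at the Col1a1 locus. All mice, controls included, were young adults of both sexes and were given doxycycline in their drinking water. Cells of each genotype were taken as naive cells, after 12 h of activation with antibodies to CD3 and CD28, and on day 5 as cytotoxic T lymphocytes (CTLs), which had been cultured with irradiated splenocytes, anti-CD3 antibody and IL-2. Doxycycline at 2 µg/mL was also in the 12 h and day 5 cultures of every genotype. Each of the 9 groups had 3 libraries, called biological replicates by the study, which does not say more about their source, so the p-values measure the spread between these libraries.

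D-type cyclins bind CDK4 and CDK6, and the active kinases phosphorylate RB proteins, which then release E2F factors that turn on the genes of DNA synthesis. CDC25A removes inhibitory phosphates from CDKs. CDKN2C (p18) binds CDK4 and CDK6, CDKN1B (p27) restrains cyclin E and cyclin A kinases and keeps T cells quiescent, and CDKN1A (p21) is induced by p53 and by mitogens. Let-7 microRNAs repress messages that carry sites for their seed, LIN28 proteins block their maturation, and Cdc25a, Cdk6 and Ccnd2 are known let-7 targets in other cells.

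The libraries held 13862692 to 23591055 counted reads in naive cells, 14102908 to 17149813 at 12 h and 18438310 to 22647825 on day 5. Levels are FPKM, fragments per unit of gene length and of sequencing depth. The annotation behind the gene lengths is not given in the sources used here. Comparisons of levels between genes, and shares of summed FPKM, therefore hold only as far as those lengths do. Lin28b was at 9.94 to 67.9 FPKM in the lin28Tg libraries and at most at 0.059 FPKM in the others. Col1a1, the gene beside the let-7g transgene, was at 9.06 to 62.8 FPKM in let-7Tg and at most at 4.93 FPKM elsewhere. The summed level of 5 T cell genes was 688 to 3145 FPKM in all 27 libraries. Libraries of naive lin28Tg cells stood apart in genes of other cells. The summed level of 4 erythroid genes was 343 to 1360 FPKM in them, against 104 to 199 FPKM in naive WT and 1.41 to 32.8 FPKM in naive let-7Tg cells. The erythroid sum came mostly from globin genes. The sum of 4 myeloid genes was 115 to 599 FPKM in naive lin28Tg cells, against 24.4 to 39.6 FPKM in WT cells.

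The let-7 sequence and the matches to its seed in these genes show which messages carry letters that let-7 could pair with. The mature let-7g of the mouse (GRCm38.p6, chr9:106178846-106178867, plus strand, RefSeq) is printed with its seed, bases 2 to 8, in capitals, and all 8 mature let-7 5p sequences listed share this seed.
mmu-let-7g-5p: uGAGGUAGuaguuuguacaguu

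Matches of 7 or 8 letters (CTACCTCA, CTACCTC or TACCTCA, on the strand of the message) were sought in the longest annotated 3′ UTR of each gene (GENCODE M21, GRCm38). Ccnd2 had 3 matches, E2f2 had 2, and Cdk4, Cdk6 and Cdc25a had 1 each. Ccnd3, Cdkn1a, Cdkn1b, Cdkn2c and E2f1 had none, and no member held the 8-letter match. Of 12748 tested genes with a 3′ UTR, 17.0% had at least 1 match and 3.15% had at least 2. The 30 bases around the matches, with 1 of the E2f2 matches left out, are printed 5′ to 3′ with the match in capitals, and a match is a description of letters and not of binding.
Ccnd2, chr6:127128294-127128323, minus strand: tcaaagagagtattcttTACCTCAggttta
Ccnd2, chr6:127128216-127128245, minus strand: tcttttcgttttcctaaTACCTCAcagcta
Ccnd2, chr6:127125580-127125609, minus strand: attatccttctgccatgTACCTCAgatcta
Cdk4, chr10:127067656-127067685, plus strand: ctcctagggcccgaggcCTACCTCccctca
Cdk6, chr5:3521622-3521651, plus strand: catttaaggagtgagtgTACCTCAgatagg
Cdc25a, chr9:109892730-109892759, plus strand: ttttatcatcctaggagCTACCTCtacttt
E2f2, chr4:136193038-136193067, plus strand: agcgtcctgcatctgtCTACCTCctcacag

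In WT cells each of the 9 genes counted changed between naive cells and 12 h of activation, 6 of them upward and 3 downward. Levels were fitted as log2 of scaled FPKM plus 0.5 with limma, and p-values were adjusted over all genes tested. At the threshold of 0.05, 71.0% of all genes tested were called in this comparison, so that a call by itself does not set these genes apart. Stage and culture changed together, so the effect of time cannot be told apart from that of the stimulus, and in RNA from bulk cells fewer cells of a type cannot be told apart from less RNA per cell.

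**Figure D1:**
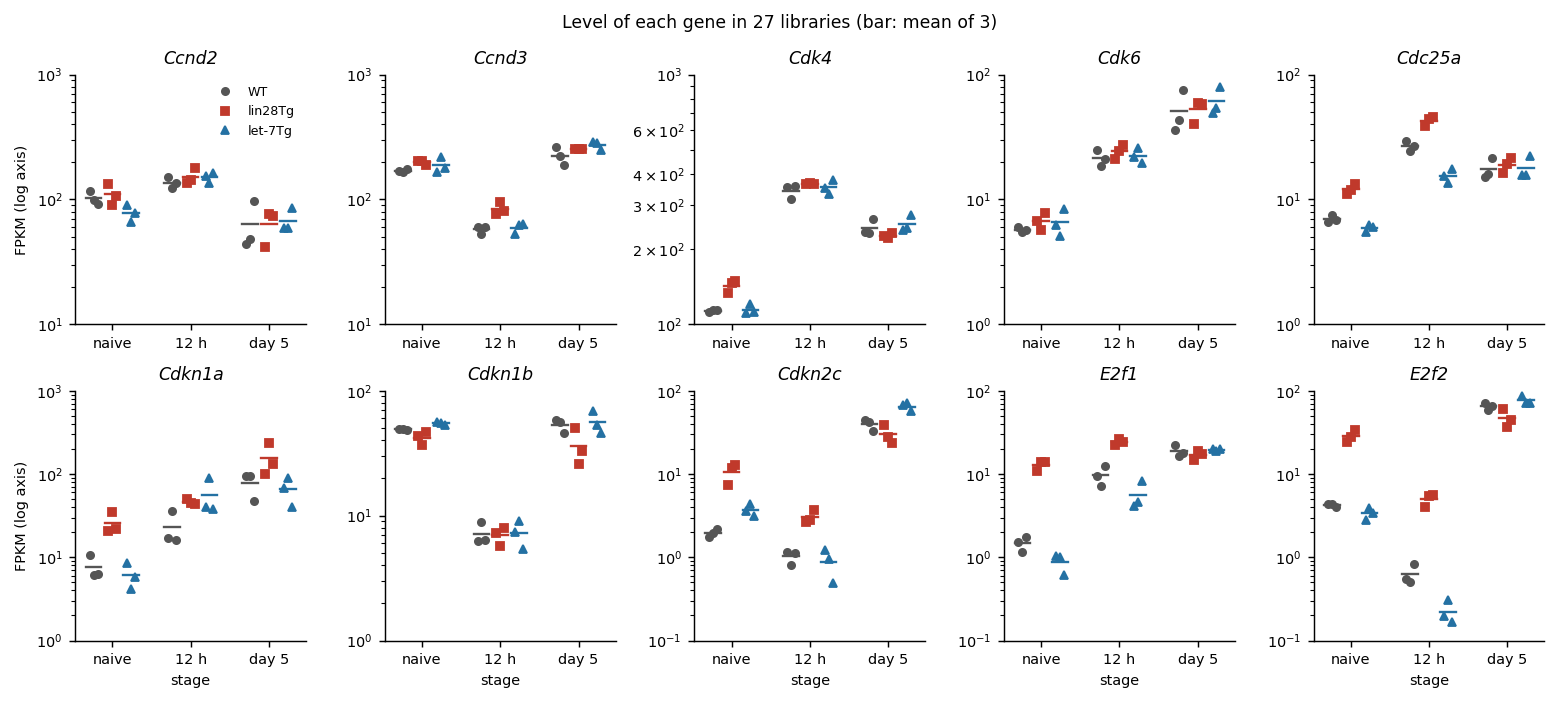
Level of each of the 10 genes in FPKM (log scale) in every library of WT, lin28Tg and let-7Tg cells at the naive, 12 h and day 5 stages, with each library as a point and the group mean as a short line. E2f2 and Cdkn2c fall to their lowest levels at 12 h and reach their highest on day 5, and the lin28Tg points of E2f1 and E2f2 lie above WT in naive cells and at 12 h.

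The cyclins moved in opposite directions at 12 h. Ccnd2 was at 116, 99.6 and 91.3 FPKM in the naive WT libraries 1 to 3 and at 150.5, 123 and 135 FPKM at 12 h. Ccnd3 was at 169, 166 and 174 FPKM in naive cells and at 60.2, 53.1 and 60.6 FPKM at 12 h. Neither gene's groups overlapped between these stages. On the log2 scale Ccnd2 rose by 0.62 (SE 0.26, limma adjusted p = 0.0376) and Ccnd3 fell by 1.33 (SE 0.12, limma adjusted p = 7.94e-10). Unscaled FPKM values, which moved the median of all genes by -0.20, gave Ccnd2 a change of 0.41 (limma adjusted p = 0.133). The change also missed the threshold without naive replicate 2 (0.66, limma adjusted p = 0.0538) or replicate 3 (0.60, limma adjusted p = 0.0769), or without 12 h replicate 1 (0.54, limma adjusted p = 0.113) or replicate 3 (0.61, limma adjusted p = 0.0752).

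On day 5 the order of the cyclins was the reverse. Ccnd2 fell by 1.32 from 12 h (SE 0.26, limma adjusted p = 0.000114), to 44.3, 48.6 and 97.0 FPKM, with replicate 3 well above the other two and inside the naive range. Ccnd3 rose by 1.80 (SE 0.12, limma adjusted p = 9.52e-12), to 263, 223 and 188 FPKM. As a share of the summed FPKM of both cyclins, Ccnd2 was 37.5% ± 3.16 (SD, n = 3) in naive WT cells, 70.1% ± 1.25 at 12 h and 22.1% ± 10.5 on day 5. Its share in lin28Tg cells was 35.4%, 64.2% and 20.0% at these stages and in let-7Tg cells 29.7%, 71.8% and 19.9%. In all 3 genotypes Ccnd2 thus had the higher FPKM of these cyclins at 12 h and Ccnd3 in naive cells and on day 5.

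The kinases differed in when they peaked. Cdk4 went from 112, 114 and 114 FPKM in naive WT cells to 354, 318 and 357 FPKM at 12 h, 3.02-fold by the means, and to 235, 232 and 264 FPKM on day 5. Its log2 changes were 1.80 and -0.63 (SE 0.09 for each, limma adjusted p = 8.01e-14 and 1.77e-06). Cdk6 rose at both steps, from 5.97, 5.5 and 5.72 FPKM through 24.9, 18.5 and 20.9 FPKM to 35.8, 43.6 and 74.6 FPKM, by 2.01 and then 1.04 on the log2 scale (SE 0.23, limma adjusted p = 8.05e-08 and 0.000455). Cdk4 had the higher FPKM of the 2 messages at every stage. Cdk6 made up 4.81% of their summed FPKM in naive WT cells, 5.87% at 12 h and 17.0% on day 5, and on day 5 18.8% in lin28Tg and 19.3% in let-7Tg cells. Cdc25a was at 6.65, 7.52 and 6.85 FPKM in naive WT cells, at 29.2, 24.5 and 26.9 FPKM at 12 h and at 15, 16.1 and 21.5 FPKM on day 5, changes of 2.07 and -0.75 (SE 0.16, limma adjusted p = 1.47e-10 and 0.000313).

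**Figure D2:**
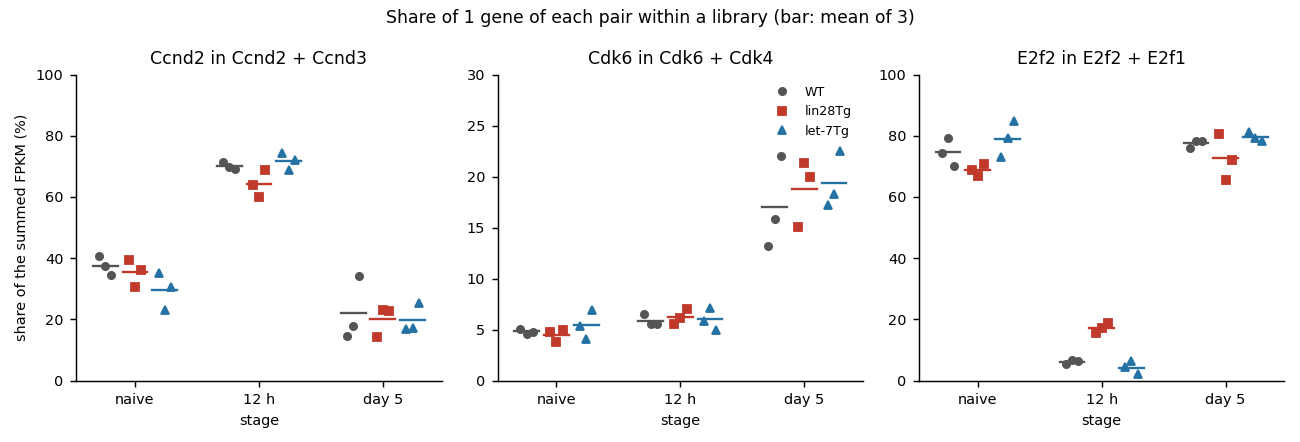
Share in percent of summed FPKM taken by Ccnd2 among Ccnd2 and Ccnd3, by Cdk6 among Cdk4 and Cdk6, and by E2f2 among E2f1 and E2f2, per library (points) with the group mean (short line), for 3 genotypes at 3 stages. The Ccnd2 share is highest at 12 h, the Cdk6 share on day 5, and the E2f2 share drops to 6.09% in WT cells at 12 h.

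The inhibitors followed 3 different courses in WT cells. Cdkn1b fell from 49.7, 49.1 and 48.2 FPKM in naive cells to 6.25, 8.93 and 6.37 FPKM at 12 h and returned to 58.4, 55.9 and 46.2 FPKM on day 5. It was the only one of the 9 genes counted that was not called between naive cells and day 5 (0.19, SE 0.18, limma adjusted p = 0.37), and its day 5 range spanned the naive one. Cdkn1a rose at both steps, from 10.7, 6.1 and 6.28 FPKM through 16.9, 36.4 and 16.3 FPKM to 94.3, 93.8 and 46.9 FPKM, 1.68 and 1.63 on the log2 scale (SE 0.38, limma adjusted p = 0.000393 and 0.000609). Cdkn2c was near the lower end of the levels in naive cells, at 1.77, 1.94 and 2.18 FPKM, and at 1.15, 0.8 and 1.14 FPKM at 12 h. On day 5 it was at 44.5, 42.1 and 32.4 FPKM, 38.5-fold above the mean at 12 h (log2 change 4.61, SE 0.21, limma adjusted p = 2.3e-14). Its fall of 0.54 at 12 h had a limma adjusted p of 0.0265, which became 0.0713 without naive replicate 2, 0.113 without naive replicate 3 (a change of -0.44) and 0.124 without 12 h replicate 2.

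The E2F genes parted at 12 h. E2f1 rose from 1.53, 1.16 and 1.73 FPKM to 9.54, 7.22 and 12.6 FPKM, while E2f2 was at 4.42, 4.41 and 4.05 FPKM in naive cells and at 0.549, 0.508 and 0.839 FPKM at 12 h. The log2 changes were 2.55 for E2f1 (SE 0.22, limma adjusted p = 6.91e-10) and, with no test, -1.95 for E2f2 (SE 0.16). On day 5 both were high, E2f1 at 22.5, 16.6 and 17.9 FPKM and E2f2 at 71.0, 59.4 and 65.0 FPKM, the latter 103-fold above its mean at 12 h (log2 change 5.79, SE 0.16). E2f2 made up 74.5% ± 4.53 (SD, n = 3) of the summed FPKM of the pair in naive WT cells, 6.09% ± 0.581 at 12 h and 77.5% ± 1.41 on day 5.

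From 12 h to day 5 all 9 genes changed again, 6 upward and 3 downward, where 67.3% of all genes tested were called. Between naive cells and day 5, 8 of 9 were called, 7 of them higher on day 5, where 65.3% of all genes tested were called. Only Ccnd2 was lower on day 5 than in naive cells (-0.70, SE 0.26, limma adjusted p = 0.0225), with groups that overlapped, and this call was lost without naive replicate 1 (-0.58, limma adjusted p = 0.0931) or replicate 2 (-0.68, limma adjusted p = 0.0519) and without day 5 replicate 1 (-0.48, limma adjusted p = 0.14) or replicate 2 (-0.55, limma adjusted p = 0.108). Over the means of all 9 groups the level of E2f2 spanned 343-fold, that of Cdkn2c 72.5-fold, E2f1 27.6-fold and Cdkn1a 25.0-fold. Cdk6 spanned 10.7-fold, Cdkn1b 7.97-fold and Cdc25a 7.23-fold, and Ccnd3, Cdk4 and Ccnd2 only 4.71-fold, 3.23-fold and 2.4-fold.

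The comparison of genotypes in naive cells asks how the G1 genes stand before activation when let-7 is blocked or kept high. In lin28Tg cells E2f1 was 8.79-fold, Cdkn2c 5.42-fold, Cdkn1a 3.36-fold, Cdc25a 1.73-fold and Cdk4 1.26-fold above WT by the means, and Cdkn1b was lower. These were 6 of the 9 genes counted, 5 higher and 1 lower, where 34.9% of all genes tested were called. Thus both an activator of S phase genes and the inhibitors Cdkn2c and Cdkn1a were higher in the same libraries.

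E2f1 was at 10.9, 13.9 and 14.0 FPKM in naive lin28Tg cells, against at most 1.73 FPKM in WT. The log2 difference was 2.72 (SE 0.18, limma adjusted p = 2.49e-05). Cdkn2c was at 7.44, 11.8 and 12.7 FPKM, against at most 2.18 FPKM (2.09, SE 0.20, limma adjusted p = 0.000124). Neither gene's lowest lin28Tg library came near the WT range. Cdkn1a was at 20.8, 34.7 and 21.9 FPKM, against 6.1 to 10.7 FPKM (1.63, SE 0.28, limma adjusted p = 0.00291). Cdc25a was at 11.1, 12.0 and 13.2 FPKM, against 6.65 to 7.52 FPKM (0.69, SE 0.10, limma adjusted p = 0.00137). Cdk4 was at 134, 146 and 149 FPKM (0.27, SE 0.06, limma adjusted p = 0.00861), a small difference between groups that did not overlap. Cdkn1b was at 43.1, 37.1 and 46.4 FPKM, against 48.2 to 49.7 FPKM (-0.28, SE 0.08, limma adjusted p = 0.02). The call of Cdkn1b was lost in a fit of all 27 libraries (limma adjusted p = 0.208), without WT replicate 2 (limma adjusted p = 0.0629) or WT replicate 3 (limma adjusted p = 0.0511) and in the unscaled values (limma adjusted p = 0.0569). Ccnd2 (90.5 to 133 FPKM) and Cdk6 (5.7 to 7.76 FPKM) overlapped with WT, with log2 differences of 0.03 (SE 0.15) and 0.15 (SE 0.16), and Ccnd3 was at 189 to 205 FPKM without a call.

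Erythroid, myeloid, Cd4, B cell and NK cell genes were all higher in naive lin28Tg than in naive WT libraries, as far as the medians of their sums go. The ranges of the sums were 28.8 to 32.9 FPKM against 18.8 to 21.4 FPKM for 4 B cell genes, 17.8 to 60.4 FPKM against 6.53 to 17.6 FPKM for 2 NK cell genes and 9.71 to 56.4 FPKM against 3.13 to 9.62 FPKM for Cd4. None of these ranges overlapped. The myeloid sum was highest in lin28Tg replicate 2, at 599 FPKM, the library with the highest Cdkn1a. Without it the log2 difference of Cdkn1a was 1.40 (limma adjusted p = 0.00884), that of E2f1 was 2.66 (limma adjusted p = 0.000173) and that of Cdkn2c 2.00 (limma adjusted p = 0.000716), and the same 6 genes were called. Replicate 1 of the naive lin28Tg libraries had the lowest myeloid (115 FPKM), Cd4, NK cell (17.8 FPKM) and B cell (28.8 FPKM) levels of its group, and also the lowest E2f1, E2f2, Cdkn2c, Cdkn1a, Cdc25a and Cdk4. Without it the log2 difference was 2.82 for E2f1 (limma adjusted p = 4.57e-05) and 2.31 for Cdkn2c (limma adjusted p = 5.24e-05). The part of these marker genes' cells in the differences was not tested.

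**Figure D3:**
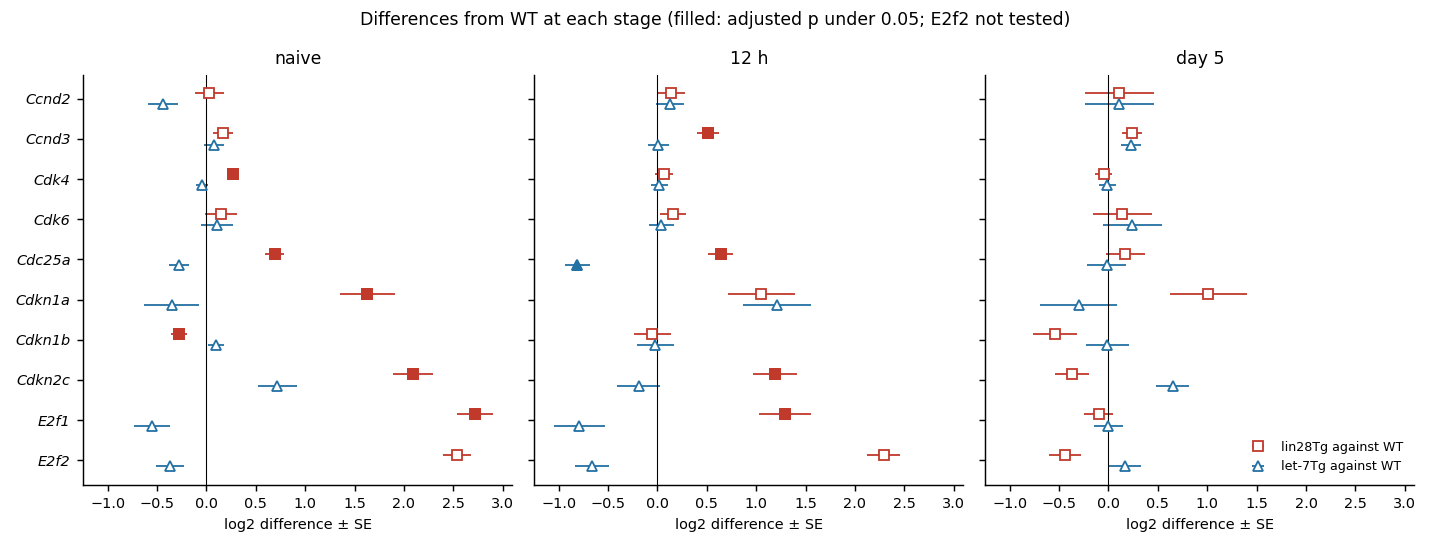
Log2 difference of lin28Tg and let-7Tg from WT for the 10 genes at the naive, 12 h and day 5 stages, with bars of 1 SE from the limma fit. Filled points passed the adjusted threshold of 0.05, open points did not, and E2f2 was not tested. E2f1, E2f2 and Cdkn2c lie far to the right for lin28Tg in naive cells (2.72, 2.54 and 2.09) and near or below 0 on day 5.

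In naive let-7Tg cells none of the 9 genes was called against WT by limma, where 0.934% of all genes tested were called. At an unadjusted p under 0.05 there were 4, where 14.6% of all genes were, and the count of calls was 0 under every alternative setting and with each library left out. Cdkn2c was at 3.57, 4.42 and 3.1 FPKM, above all WT libraries (0.72, SE 0.20, limma adjusted p = 0.129). E2f1 was at 1.03, 1.01 and 0.605 FPKM, below all WT libraries (-0.55, limma adjusted p = 0.196). Ccnd2 was at 90.2, 66.4 and 78.0 FPKM (-0.44, limma adjusted p = 0.216) and Cdc25a at 5.46, 6.2 and 6.07 FPKM (-0.28, limma adjusted p = 0.252), both without overlap with WT. The share of all genes whose groups did not overlap is not given. Here and elsewhere, lack of overlap between groups of 3 libraries therefore does not by itself set a gene apart. Compared directly with let-7Tg, the naive lin28Tg cells differed in 7 of 9 genes, where 44.2% of all genes tested were called. E2f1 differed by 3.27 on the log2 scale (SE 0.18, limma adjusted p = 5.25e-06). Ccnd2, the only added gene, differed by 0.48 (SE 0.15, limma adjusted p = 0.0286), a call lost without lin28Tg replicate 1 (limma adjusted p = 0.0814) or 3 (limma adjusted p = 0.0536) or without let-7Tg replicate 2 (limma adjusted p = 0.095) or 3 (limma adjusted p = 0.0722). In a fit of all 27 libraries neither Ccnd2 (limma adjusted p = 0.179) nor Cdkn1b (limma adjusted p = 0.086) was called between lin28Tg and let-7Tg. The erythroid sum was 1.41 to 32.8 FPKM in the naive let-7Tg libraries, against 104 to 199 FPKM in WT and 343 to 1360 FPKM in lin28Tg. Its part in these differences was not tested.

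After 12 h of activation lin28Tg cells held more Ccnd3, Cdc25a, Cdkn2c and E2f1 than WT cells, 4 of 9 genes, where 8.48% of all genes tested were called. E2f1 was at 22.3, 26.5 and 24.4 FPKM, against 7.22 to 12.6 FPKM in WT (1.29, SE 0.26, limma adjusted p = 0.0168). Cdc25a was at 38.4, 44.3 and 45.5 FPKM, against 24.5 to 29.2 FPKM (0.64, SE 0.13, limma adjusted p = 0.0152). All 3 lin28Tg libraries stood above all WT libraries for both. Cdkn2c was at 2.63, 2.81 and 3.68 FPKM, against 0.8 to 1.15 FPKM (1.19, SE 0.22, limma adjusted p = 0.0106). Ccnd3 was at 76.1, 95.5 and 81.1 FPKM, against 53.1 to 60.6 FPKM (0.51, SE 0.11, limma adjusted p = 0.0185). These calls rest on few libraries. The count was 1 without lin28Tg replicate 2 or 3, with limma adjusted p-values of 0.0724 and 0.0562 for Ccnd3, 0.0708 and 0.0662 for Cdc25a and 0.0739 and 0.0602 for E2f1, and 2 without WT replicate 1. Cdkn1a was at 49.4, 45.0 and 43.1 FPKM in lin28Tg and at 16.9, 36.4 and 16.3 FPKM in WT, again without overlap, at a limma adjusted p of 0.0896 (1.05, SE 0.34), which was 0.0219 without WT replicate 2 (1.41). The erythroid sum at 12 h was 497, 117 and 57.4 FPKM in lin28Tg and 18.8, 77.0 and 29.8 FPKM in WT, and its part in these values was not tested.

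The let-7Tg cells at 12 h held less Cdc25a than WT cells. Its level was 15.3, 13.6 and 17.4 FPKM, below every WT library (-0.81, SE 0.13, limma adjusted p = 0.0223). It was the only one of 9 genes called, where 3.24% of all genes tested were called, and the count was 0 without WT replicate 1 (-0.74, limma adjusted p = 0.0746) or WT replicate 3 (-0.80, limma adjusted p = 0.0904). Cdc25a was thus ordered lin28Tg above WT above let-7Tg at 12 h with no overlap between neighbours. E2f1 was at 4.16, 4.56 and 8.23 FPKM, with the highest let-7Tg library above the lowest of WT (-0.79, SE 0.26, limma adjusted p = 0.124). Cdkn1a was at 40.2, 90.7 and 37.8 FPKM, above all WT libraries (1.21, SE 0.34, limma adjusted p = 0.0791). In both groups replicate 2 held the most Cdkn1a, and with the replicate number as a block Cdkn1a was called as well (limma adjusted p = 0.0429). Ccnd2, Cdk4 and Cdk6 carry let-7 seed matches as Cdc25a does. They had log2 differences of 0.13 (SE 0.14), 0.02 (SE 0.09) and 0.04 (SE 0.13) from WT, within their spread. E2f1 and Cdkn2c carry none. Their means in lin28Tg, WT and let-7Tg were 24.4, 9.79 and 5.65 FPKM for E2f1 and 3.04, 1.03 and 0.891 FPKM for Cdkn2c. Neither gene was called between let-7Tg and WT, where the groups overlapped for both. The log2 difference of Cdkn2c there was -0.19 (SE 0.22, limma adjusted p = 0.661), also within its spread. The part of the matches was not tested. The erythroid sum was 3.74, 0.863 and 0.774 FPKM in let-7Tg and 18.8, 77.0 and 29.8 FPKM in WT, and its part was not tested.

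Set against each other at 12 h, lin28Tg and let-7Tg cells differed in the same 4 genes as lin28Tg and WT, where 30.8% of all genes tested were called. The log2 differences were 2.08 for E2f1 (SE 0.26, limma adjusted p = 0.000554), 1.45 for Cdc25a (SE 0.13, limma adjusted p = 7.62e-05), 1.38 for Cdkn2c (SE 0.22, limma adjusted p = 0.0018) and 0.51 for Ccnd3 (limma adjusted p = 0.00747). Cdkn1b was at 5.36 to 9.14 FPKM in all 9 libraries of this stage. The erythroid sum was 57.4 to 497 FPKM in the lin28Tg and 0.774 to 3.74 FPKM in the let-7Tg libraries. Its part in these differences was not tested.

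On day 5 the calls of the main fit came only from lin28Tg against let-7Tg. They were Cdkn1a and Cdkn2c, 2 of 9 genes, near the 21.6% of all genes tested that were called there. No gene of the 9 was called by limma between lin28Tg and WT, where 4.34% of all genes tested were called, although 3 had an unadjusted p under 0.05, as had 19.6% of all genes. The level of Cdkn1a was 99.2, 233 and 133 FPKM in lin28Tg and 94.3, 93.8 and 46.9 FPKM in WT, and no library of one group lay within the other (1.01, SE 0.39, limma adjusted p = 0.195). That of Cdkn1b was 50.2, 25.9 and 33.0 FPKM against 58.4, 55.9 and 46.2 FPKM, where the groups overlapped (-0.54, SE 0.22, limma adjusted p = 0.207). Same-numbered day 5 libraries deviated together, and with the replicate number as a block both genes were called, 2 of 9 (limma adjusted p = 0.0366 for Cdkn1a and 0.0436 for Cdkn1b). The block raised the number of all genes called from 566 to 1754. Cdkn1b was also called without lin28Tg replicate 1 (-0.78, limma adjusted p = 0.0451). The NK cell gene sum was 60.8 to 158 FPKM in day 5 lin28Tg cells and 8.35 to 40.6 FPKM in WT cells, nearly all of it Klrb1c, with Ncr1 at most at 0.0305 FPKM in these libraries, while the erythroid sum was at most 1.47 FPKM in every day 5 library. The part of the NK cell genes in these values was not tested.

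In day 5 let-7Tg cells Cdkn2c was at 66.9, 70.7 and 56.3 FPKM, above all WT libraries at 32.4 to 44.5 FPKM (0.65, SE 0.17, limma adjusted p = 0.129). No gene of 9 was called by limma, where 0.929% of all genes tested were called, with 2 at an unadjusted p under 0.05 (12.6% of all genes), and with the replicate block, which raised the calls over all genes from 121 to 530, Cdkn2c alone was called (limma adjusted p = 0.0207). Between lin28Tg and let-7Tg, Cdkn2c was lower (-1.02, SE 0.17, limma adjusted p = 0.00355) and Cdkn1a higher (1.31, SE 0.39, limma adjusted p = 0.0425) in lin28Tg cells, 2 of 9 genes, where 21.6% of all genes tested were called. Cdkn2c in lin28Tg cells was at 38.4, 27.5 and 23.6 FPKM, below the let-7Tg range. The NK cell gene sum was 60.8 to 158 FPKM in these lin28Tg libraries and 2.15 to 4.63 FPKM in the let-7Tg libraries, and its part in the differences was not tested. Cdkn1a was at 68.5, 90.0 and 40.4 FPKM in let-7Tg cells, and its call was lost without lin28Tg replicate 2 (0.96, limma adjusted p = 0.136) or 3 (1.37, limma adjusted p = 0.0927), without let-7Tg replicate 1 (1.36, limma adjusted p = 0.0945) or 3 (1.03, limma adjusted p = 0.1), and in unscaled values (1.2, limma adjusted p = 0.0576). Cdkn1b differed by -0.54 (limma adjusted p = 0.112, and 0.0219 with the replicate block). E2f1 (14.6 to 22.5 FPKM), Cdc25a (15 to 22.4 FPKM), Ccnd2 (41.8 to 97.0 FPKM) and Cdk6 (35.8 to 79.3 FPKM) overlapped between all genotypes on day 5.

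The change of a genotype difference from stage to stage was tested as an interaction in one fit of all 27 libraries. The lin28Tg difference of E2f1 shrank by 1.38 on the log2 scale from naive cells to 12 h (SE 0.31, limma adjusted p = 0.00895), 1 of 9 genes, where 7.85% of all genes tested were called. From 12 h to day 5 it shrank by another 1.37 (SE 0.31, limma adjusted p = 0.00916), and that of Cdkn2c by 1.56 (SE 0.30, limma adjusted p = 0.00202), 2 of 9 genes, where 6.42% were called. So E2f1 went from several-fold above WT in naive lin28Tg cells to a mean inside the WT range on day 5. Without lin28Tg naive replicate 1 the Cdkn2c difference also shrank from naive cells to 12 h (-1.10, limma adjusted p = 0.017). Genes of other cells changed between these stages too. The myeloid sum of the lin28Tg libraries was 115 to 599 FPKM in naive cells, 3.36 to 6.65 FPKM at 12 h and 1.22 to 3.56 FPKM on day 5. Their erythroid sum was 343 to 1360, 57.4 to 497 and 0.295 to 1.44 FPKM. The part of these genes' cells in the changes was not tested.

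The let-7Tg difference from WT changed between stages for none of the 9 genes by limma, where 0.0969% and 1.35% of all genes tested were called at the first and second step. At an unadjusted p under 0.05 there were 3 and 4 genes, where 7.60% and 11.9% of all genes were. Cdc25a rose relative to WT from 12 h to day 5 by 0.80 with a limma adjusted p of 0.0911. With the replicate block, whose numbers pair the let-7Tg and WT libraries at both stages, it was called (limma adjusted p = 0.0123), as it was without WT day 5 replicate 3 (0.97, limma adjusted p = 0.0182), and without let-7Tg 12 h replicate 3 E2f1 was called instead (1.12, limma adjusted p = 0.0477).

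The difference between lin28Tg and let-7Tg fell from naive cells to 12 h by 2.11 for Cdkn1a (SE 0.53, limma adjusted p = 0.0104) and by 1.12 for E2f1 (SE 0.31, limma adjusted p = 0.0192), 2 of 9 genes, where 13.4% of all genes tested were called. E2f1 lost this call without let-7Tg naive replicate 3 (-0.99, limma adjusted p = 0.0547) or let-7Tg 12 h replicate 3 (-0.81, limma adjusted p = 0.0591). From 12 h to day 5 the difference fell by 2.41 for Cdkn2c (SE 0.30, limma adjusted p = 4.23e-06), by 2.18 for E2f1 (SE 0.31, limma adjusted p = 2.59e-05), by 1.24 for Cdc25a (SE 0.23, limma adjusted p = 0.000421) and by 0.49 for Ccnd3 (SE 0.17, limma adjusted p = 0.0388), 4 of 9 genes, where 20.9% were called. Cdkn1a moved the other way, by 1.49 (SE 0.53, limma adjusted p = 0.0508). It was called with a pseudocount of 1 FPKM (limma adjusted p = 0.0488) and without let-7Tg 12 h replicate 1 (1.65, limma adjusted p = 0.0466) or 3 (1.68, limma adjusted p = 0.0415), lin28Tg day 5 replicate 1 (1.79, limma adjusted p = 0.0224) or let-7Tg day 5 replicate 2 (1.69, limma adjusted p = 0.0399). Cdkn2c turned from 1.38 above let-7Tg at 12 h to 1.02 below it on day 5. The call of Ccnd3 was lost on leaving out any of 7 of the 12 libraries involved, among them lin28Tg 12 h replicate 2 (-0.39, limma adjusted p = 0.12). The erythroid sum was 343 to 1360 FPKM in lin28Tg against 1.41 to 32.8 FPKM in let-7Tg in naive cells. At 12 h it was 57.4 to 497 FPKM against 0.774 to 3.74 FPKM, and on day 5 at most 1.47 FPKM. The part of erythroid or myeloid genes' cells in these changes was not tested.

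E2f2 was chosen for its turn of sign, and its values describe that turn. In naive cells it was at 24.1, 28.1 and 34.1 FPKM in lin28Tg, at 4.05 to 4.42 FPKM in WT and at 2.8, 3.88 and 3.41 FPKM in let-7Tg. At 12 h it was at 4.05, 5.51 and 5.64 FPKM in lin28Tg, at 0.508 to 0.839 FPKM in WT and at 0.195, 0.305 and 0.168 FPKM in let-7Tg, where a library held 7 to 12 reads of it. The order was lin28Tg above WT above let-7Tg at both stages, with no overlap between neighbours. On day 5 it was at 60.0, 36.3 and 44.8 FPKM in lin28Tg, at 59.4 to 71.0 FPKM in WT and at 86.4, 71.1 and 71.7 FPKM in let-7Tg, so that the order was reversed, with lin28Tg replicate 1 just inside the WT range. The log2 difference of lin28Tg from WT was 2.54 in naive cells (SE 0.14), 2.29 at 12 h (SE 0.17) and -0.44 on day 5 (SE 0.16), and that of let-7Tg from WT was -0.37, -0.66 and 0.17 (SE 0.14, 0.17 and 0.16).

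The ratio of the lin28Tg to the WT mean of E2f2 was 6.69 in naive cells and 8.02 at 12 h, although the level itself fell between these stages in both genotypes. E2f2 made up 68.9% of the summed FPKM of E2f1 and E2f2 in naive lin28Tg cells, 17.1% ± 1.72 (SD, n = 3) at 12 h and 72.7% on day 5, and 79.1%, 4.25% and 79.5% in let-7Tg cells. The highest E2f2 among the lin28Tg libraries, 34.1 FPKM in naive cells and 5.64 FPKM at 12 h, stood in the library with the lowest erythroid sum of its group, 343 and 57.4 FPKM. The lowest E2f2 of the naive lin28Tg libraries, 24.1 FPKM, stood in the library with the lowest myeloid sum, 115 FPKM against 327 and 599 FPKM. At 12 h the lowest E2f2 of the lin28Tg libraries, 4.05 FPKM, stood in the library with the highest myeloid sum of its group, 6.65 FPKM. E2F2 is known for a role in red cell precursors. The erythroid sum was higher in lin28Tg than in let-7Tg libraries in naive cells and at 12 h and at most 1.47 FPKM in every library on day 5, and the part of erythroid or myeloid genes' cells in the level of E2f2 was not tested.

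**Figure D4:**
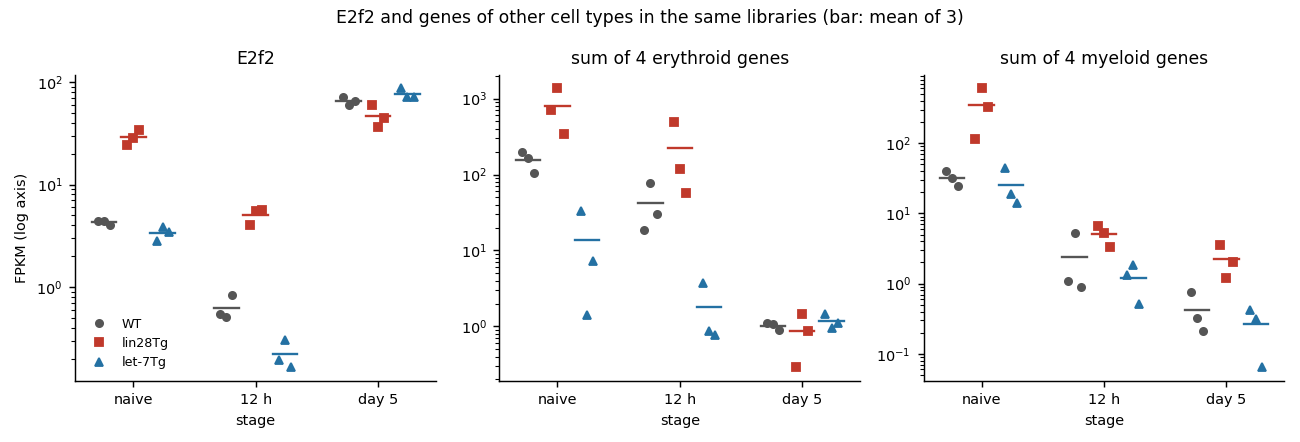
Level of E2f2 and summed level of 4 erythroid and of 4 myeloid genes, in FPKM on log axes, by stage in each library of the 3 genotypes (points, in the order of replicates 1 to 3) with the group mean (short line). The naive lin28Tg library with the highest E2f2, 34.1 FPKM, has the lowest erythroid sum of its group, 343 FPKM. The one with the lowest E2f2, 24.1 FPKM, has the lowest myeloid sum, 115 FPKM. At 12 h the lin28Tg library with the lowest E2f2, 4.05 FPKM, has the highest myeloid sum of its group, 6.65 FPKM. On day 5 the erythroid sums are at most 1.47 FPKM. The part of these genes' cells in the level of E2f2 was not tested.

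Promoters of the members were searched for the E2F-like letters TTT, C or G, C or G, CG, then C or G, on both strands, in the 250 bases before and 50 after each RefSeq start (GRCm38.p6). Of 32851 promoters of this length 4.51% held a match. Of the 13 entries of the 9 members that had any, 3 held one, 1 each of Cdc25a, Cdkn2c and E2f2, and the other 6 genes held none in this window. The only entry of E2f1 (chr2:154569377-154569676, minus strand) lay inside the annotated gene, which begins at 154569892 on this strand. The only entry of Cdk6 (chr5:3343643-3343942, plus strand) also lay inside its gene, which begins at 3341485. Bases before these 2 gene starts were not searched, so a match there would have been missed. The promoters of Cdc25a (1 match, first base at -67 from the start) and of E2f2 (2 matches, at 25 and 40 after it) are printed with the match in capitals. A match is a description of letters, and a link of it to the levels was not tested. The match of Cdkn2c stood at -200 of its second entry, which lay inside the annotated gene and is not printed.
Cdc25a, chr9:109875329-109875628, plus strand: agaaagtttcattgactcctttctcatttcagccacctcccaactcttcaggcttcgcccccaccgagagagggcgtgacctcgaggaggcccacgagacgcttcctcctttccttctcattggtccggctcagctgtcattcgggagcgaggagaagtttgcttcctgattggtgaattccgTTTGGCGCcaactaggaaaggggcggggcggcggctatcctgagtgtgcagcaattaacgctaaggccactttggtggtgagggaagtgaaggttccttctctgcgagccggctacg
E2f2, chr4:136172024-136172323, plus strand: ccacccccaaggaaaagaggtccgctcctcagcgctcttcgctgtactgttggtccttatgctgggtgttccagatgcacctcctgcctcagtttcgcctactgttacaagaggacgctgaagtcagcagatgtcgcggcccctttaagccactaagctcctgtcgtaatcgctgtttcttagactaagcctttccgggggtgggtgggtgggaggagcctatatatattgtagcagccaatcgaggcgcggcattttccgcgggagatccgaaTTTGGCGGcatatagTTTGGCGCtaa

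Other genes of the same step were taken from lists. The lists were chosen with earlier results of these data known, so counts on them are descriptions and not tests of the lists. In naive lin28Tg cells, 15 of 16 E2F target genes of S phase were higher than in WT, where 19.0% of all genes tested were called higher, with a median log2 difference of 1.18 beside -0.04 over all genes tested. The exception was Cdt1, a loader of the replicative helicase (0.10, limma adjusted p = 0.444). The same libraries held the higher erythroid (343 to 1360 against 104 to 199 FPKM), myeloid (115 to 599 against 24.4 to 39.6 FPKM), NK cell, B cell and Cd4 levels given above, and their part in the change of this and the other lists was not tested. Rrm2, a subunit of ribonucleotide reductase, was at a mean of 53.8 FPKM against 3.33 FPKM (3.77, SE 0.18, limma adjusted p = 6.65e-06). Mcm5, of the replicative helicase, was at 49.7 FPKM against 16.8 FPKM (1.48, SE 0.07, limma adjusted p = 6.65e-06). Of 6 G1/S cyclins and kinases 5 were higher (Ccna2, Cdk1, Ccnd1, Ccne2 and Cdk2, by 3.65 to 0.82), of 8 other E2F and DP factors 5 (E2f8, E2f7, Tfdp1, E2f3 and E2f6) and of 6 other CDC25 and turnover genes 4 (Cks1b, Cdc25c, Cdc34 and Skp2). Of 3 tested other CDK inhibitors 2 were higher, Cdkn2a by 2.37 and Cdkn2b by 1.54, and of the 3 RB family genes Rb1 by 0.36, with none lower on any list. These genes were named after their values were seen. At 12 h, where 6.10% of all genes tested were called higher, 5 of the 16 targets (among them Rrm2, Cdc6, Cdc45 and Tyms, list median 0.64), 4 of the 6 cyclins and kinases, 4 of 8 E2F and DP factors, 5 of 6 CDC25 and turnover genes and 1 of 2 inhibitors (Cdkn2d) were higher in lin28Tg cells, and no RB family gene was called. Cdc34, a ubiquitin-conjugating enzyme that acts with SCF ligases on CDK inhibitors, was at 236 FPKM against 134 FPKM (0.80, SE 0.06, limma adjusted p = 0.000307), and Ccna2, the cyclin of S phase, at 21.8 FPKM against 2.03 FPKM (3.10, SE 0.26, limma adjusted p = 0.000373). On day 5, where 2.03% were called higher, no target gene was called (median -0.04), and no cyclin or kinase of the list and no RB family gene. Cdc34 was still higher (1.02, SE 0.18, limma adjusted p = 0.0181), as was E2f5, a repressive E2F (7.94 FPKM against 3.57 FPKM, 1.11, SE 0.22, limma adjusted p = 0.0298), and so was Cdkn2b, 1 of 3 tested inhibitors (1.46, limma adjusted p = 0.041).

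In let-7Tg cells the lists held few calls, and every call was downward. In naive cells, where 0.633% of all genes tested were called lower, Cdc34 alone was lower, at 36.2 FPKM against 50.8 FPKM (-0.54, SE 0.09, limma adjusted p = 0.0369). At 12 h, where 1.87% were called lower, 1 of 16 target genes was lower (Rrm2, -1.71), with a list median of -0.40 beside 0.0 over all genes tested. So were 2 of 6 cyclins and kinases (Ccna2 by -1.50 and Cdk1 by -1.28), 1 of 8 E2F and DP factors (E2f6), 2 of 6 CDC25 and turnover genes (Cdc34 and Cks1b) and 1 of 2 inhibitors. Cdc34 was at 69.6 FPKM against 134 FPKM (-0.97, SE 0.06, limma adjusted p = 0.000148), and Cdkn2d, an inhibitor of CDK4 and CDK6, at 3.85 FPKM against 6.83 FPKM (-0.78, SE 0.10, limma adjusted p = 0.0112). On day 5 no gene of any list was called by limma. The erythroid sum at 12 h was 0.774 to 3.74 FPKM in let-7Tg and 18.8 to 77.0 FPKM in WT libraries. In naive cells it was 1.41 to 32.8 FPKM against 104 to 199 FPKM, and its part in these lists was not tested.

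In WT cells all 16 target genes rose from naive cells to 12 h, with a median of 1.98, where 34.6% of all genes tested rose, and all were higher on day 5 than in naive cells, with a median of 2.64, where 31.9% were higher. Tfdp1, the partner of E2F proteins, rose by 3.00 (SE 0.14, limma adjusted p = 2.18e-14) and Mcm5 by 2.91 (SE 0.17, limma adjusted p = 9.89e-13), while Cdkn2d fell by 2.79 (SE 0.13, limma adjusted p = 3.39e-14) and Cdc25b by 2.40 (SE 0.23, limma adjusted p = 2.85e-09). From 12 h to day 5, 9 of the 16 targets rose, where 33.6% of all genes did, and 1 fell, Ccna2 rose by 6.03 (SE 0.21, limma adjusted p = 4.46e-16) and the repressor E2f7 by 4.60 (SE 0.18, limma adjusted p = 2.33e-15), and E2f5 and E2f4 fell by 1.89 and 1.17 (limma adjusted p = 4.07e-09 and 1.02e-08). Against naive cells, Cdk1, the mitotic kinase, was at 143 FPKM on day 5 instead of 0.714 FPKM, whereas Ccnd1 was at 0.178 FPKM instead of 2.18 FPKM (-1.88, SE 0.31, limma adjusted p = 1.39e-05).

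**Figure D5:**
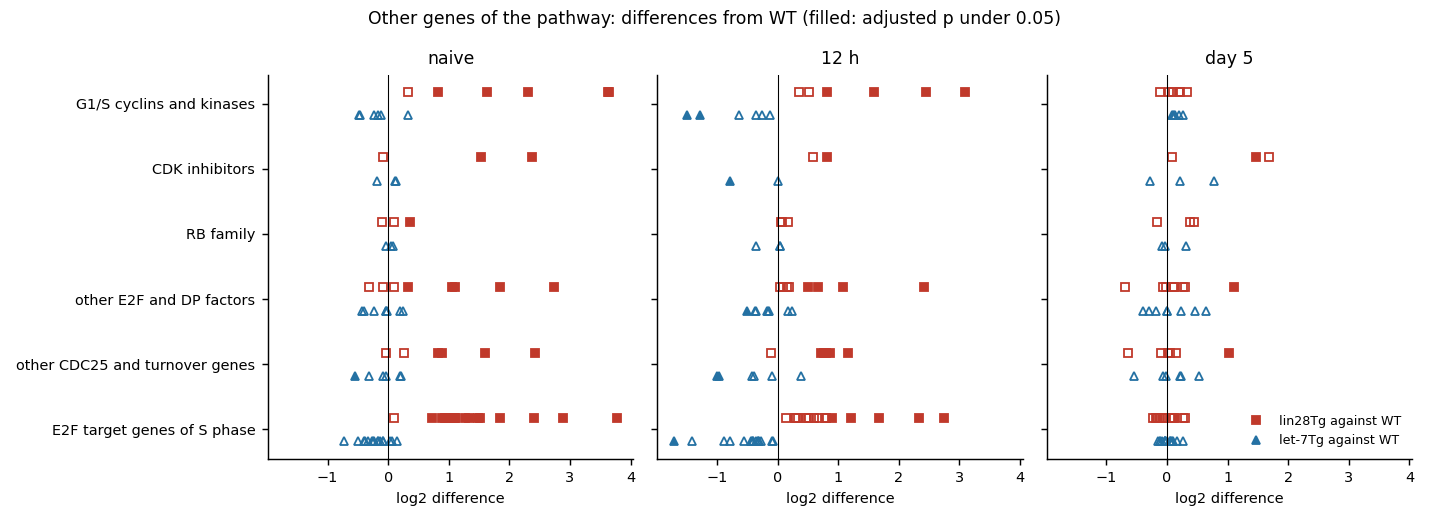
Log2 difference from WT of the tested genes of 6 lists in lin28Tg (squares) and let-7Tg cells (triangles) at 3 stages, each point a gene, filled where the adjusted p was under 0.05. Most points of the E2F target genes are filled and to the right of 0 for naive lin28Tg cells (15 of 16), 5 are at 12 h and none is on day 5.

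Over the 9 group means of log2 level some members moved together. The Pearson correlation was 0.97 for Cdkn2c and E2f2, 0.92 for Ccnd3 and Cdkn1b, 0.91 for Cdk4 and Cdc25a, -0.94 for Ccnd2 and Ccnd3 and -0.93 for Ccnd2 and Cdkn1b. These are descriptions over 9 points that share 3 stages. Among 14453 genes, those most like E2f2 were Tcf19 (r = 0.998), Paqr4 (0.996) and Akr1a1 (0.996), those most like E2f1 were Uhrf1 (0.982), Chaf1a (0.981) and Cenps (0.979), and those most like Cdkn2c were Fbxo5 (0.991), Cdca3 (0.988) and 1700025G04Rik (0.987). Tcf19, Uhrf1, Chaf1a and Fbxo5 are known as genes of proliferating cells. For Cdc25a they were Ppil1, Trip10 and Aco1 (0.984 to 0.986), for Cdk4 Hdgf, Pop1 and Pold2 (0.995 to 0.997), for Cdk6 Tmem237, Nedd1 and Impad1 (0.995 to 0.996), and for Ccnd2 Lamtor1, D17Wsu92e and Clptm1 (0.985 to 0.998). For Ccnd3 they were Srgap2, Haus8 and Galnt7 (0.992 to 0.995), for Cdkn1b Khk and Ascc1 were among them (both 0.996), and for Cdkn1a Lrrc75a, Adam9 and Gm20678 (0.976 to 0.981).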

How the data were processed

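RNA of 27 libraries was aligned by the authors with TopHat2 (2.0.9) and Bowtie2 (2.0.6) and counted per gene with HTSeq (0.6.1), versions and the builds GRCm38 and mm10 being those of the submitters' processing notes. The authors deposited FPKM, counts divided by gene length and library total, in 3 tables of 44 columns, 1 per stage. The tables also hold mean signals per group, the authors' fold changes and p-values from DESeq2 and heatmap clusters, which were not used. All 462839 FPKM values above 0 were whole reads (within 0.02 reads), which gave the depths. The reads were used for depth and filtering only.

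FPKM were scaled by trimmed means of log ratios (30% of ratios and 5% of levels trimmed at each end), and log2(FPKM + 0.5) was fitted with limma 3.58.1 in R 4.3.3 with an intensity trend, per stage for genotypes and over all 27 libraries for stages and interactions, with Benjamini-Hochberg adjustment at 0.05. A fold change on this scale understates that of low genes. A gene was tested if at least 3 libraries held 10 reads or more after scaling to the median depth, and the libraries together 15, which all 10 members had in every comparison. Means and SDs are of unscaled FPKM. Python 3.11.15, numpy 2.4.6, pandas 2.3.3 and matplotlib 3.10.9 were used. The fits were tested on simulated data. E2f2 was to be tested between WT stages, but its WT values also enter the differences it was chosen for, and it is described only. Members and lists were chosen with earlier results of these data known. By plan, at most 2 called list genes per direction, those of smallest adjusted p, were to be named per comparison with WT and per WT stage step. For each member the plan named the 3 genes with the highest Pearson correlation over the 9 group means. Further list genes are named in the text, chosen after their values were seen. The replicate numbers of the labels were taken to pair libraries where all correlations of their deviations from the group mean passed 0.1, as on day 5 (0.241 to 0.691) and for let-7Tg and WT at 12 h (0.191 to 0.483), and not elsewhere (-0.233 to 0.427). Alternatives were the scaling, the pseudocount, the filter, the libraries in the fit, the replicate block and each library left out. A few items of the lists and sequences are not reported here.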

Additional observations from a re-analysis of the deposited data

Results flagged for a closer look

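Several genotype differences changed between stages by a test of the change itself, the limma interaction in all 27 libraries. For lin28Tg against WT, E2f1 changed by -1.38 from naive cells to 12 h and by -1.37 from 12 h to day 5, and Cdkn2c by -1.56 from 12 h to day 5. These were 1 and 2 of 9 genes, where 7.85% and 6.42% of all genes tested were called. For lin28Tg against let-7Tg, Cdkn1a changed by -2.11 and E2f1 by -1.12 from naive cells to 12 h, and Ccnd3 by -0.49, Cdc25a by -1.24, Cdkn2c by -2.41 and E2f1 by -2.18 from 12 h to day 5, all as log2 values. These were 2 and 4 of 9 genes, where 13.4% and 20.9% of all genes tested were called. The calls of Ccnd3 and of E2f1 from naive cells to 12 h were lost on leaving out some single libraries.

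The E2f2 difference between lin28Tg and let-7Tg was 2.91 in naive cells, 2.94 at 12 h and -0.61 on day 5 on the log2 scale. All lin28Tg libraries were above all let-7Tg libraries at the first 2 stages and below them on day 5. This turn is what E2f2 was chosen for, and the difference between stages was not tested.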

How the results depend on the processing

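Counts of the 9 genes called moved by over 1.5 times in these settings. With the replicate block the count was 2 for let-7Tg against WT at 12 h, 2 for lin28Tg against WT on day 5, 1 for let-7Tg against WT on day 5 and 1 for its change from 12 h to day 5. For let-7Tg against WT at 12 h it was 0 in a fit of only the 6 libraries compared and 2 in a fit of all 27. For lin28Tg against let-7Tg on day 5 it was 1 unscaled and 1 without the filter. With a pseudocount of 1 FPKM the change from naive cells to 12 h had 2 calls for lin28Tg against WT and 1 for lin28Tg against let-7Tg, and unscaled the change of let-7Tg against WT from 12 h to day 5 had 1. The cause was not tested. Leaving out each library gave 1 to 4 calls for lin28Tg against WT at 12 h, 0 to 1 for let-7Tg against WT at 12 h, 0 to 1 for lin28Tg against WT and 1 to 3 for lin28Tg against let-7Tg on day 5. The changes between stages gave 1 to 2 (lin28Tg against WT, naive to 12 h), 0 to 1 (let-7Tg against WT, 12 h to day 5), 1 to 3 and 3 to 5 calls (lin28Tg against let-7Tg, naive to 12 h and 12 h to day 5).

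No called difference of a member changed its direction in any setting run. Where the numbers did not pair the libraries, the block also brought Cdkn1a above the threshold for lin28Tg against WT at 12 h (limma adjusted p = 0.0246) and for the change of lin28Tg against let-7Tg from 12 h to day 5 (limma adjusted p = 0.0131), and Cdc25a for that from naive cells to 12 h (limma adjusted p = 0.0254). Low read numbers limit E2f2 in let-7Tg cells at 12 h, at 7 to 12 reads. Cdkn2c at 12 h also had few, 24 to 32 reads in WT and 14 to 35 reads in let-7Tg libraries. E2f1 had 23 to 44 reads in naive let-7Tg libraries.

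Over all genes tested, the calls for let-7Tg against WT ranged most. They went from 124 to 42 without the filter, 71 with the block, 66 in the 6 libraries and 68 in all 27 in naive cells, from 396 to 82, 242, 36 and 648 at 12 h, and from 121 to 57, 530, 1 and 583 on day 5, where a pseudocount of 0.1 gave 73. For lin28Tg against WT on day 5 the 566 calls became 343 without the filter, 1754 with the block, 193 in the 6 libraries and 1386 in all 27, and for lin28Tg against let-7Tg on day 5 the 2812 calls became 4732 with the block. Of the changes between stages, that of lin28Tg against WT went from 1134 to 684 (pseudocount 0.1) at the first step and from 928 to 1542 (block) at the second, and that of let-7Tg against WT from 14 to 6 (pseudocount 0.1) and from 195 to 112 (no filter) or 354 (block). Unscaled values moved the share of calls that were higher from 54.6% to 66.4% (lin28Tg against WT) and from 32.3% to 51.0% (let-7Tg against WT) in naive cells, and from 62.0% to 72.4% (let-7Tg against WT) and from 50.2% to 35.0% (lin28Tg against let-7Tg) on day 5. For the changes between stages they moved it from 35.3% to 23.1% and from 33.9% to 20.9% (lin28Tg against WT, both steps), from 62.6% to 73.1% (let-7Tg against WT, second step) and from 45.8% to 31.5% (lin28Tg against let-7Tg, second step).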
